A study of Mus musculus with 13 samples.

Results

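The endothelial markers of mouse liver were followed across 3 genotypes of SIRT1 as 10 genes: Clec4g, Stab1, Stab2 and Lyve1 for sinusoidal endothelium, and Pecam1, Cdh5, Kdr, Tek, Esam and Vwf for endothelium in general. The members were taken by name, with older names allowed, so that Lyve1 was read from probes named Xlkd1 and Esam from a probe named Esam1. They had 20 of the 41174 probes on the array, 8 for the sinusoidal and 12 for the general genes. Of these probes 16 were well above background on at least 3 arrays, 7 sinusoidal and 9 general, so all 10 genes were among the 20390 genes tested. Total liver RNA came from male C57BL/6 mice that had all eaten a western-style diet rich in fat for 5 months, with no other treatment, and each array held 1 mouse. SIRT1 is an NAD-dependent deacetylase. The groups were 5 wild-type mice (WT), 5 mice carrying the TAKI knock-in, in which alanine replaces the threonine T522 of SIRT1 and cannot be phosphorylated, and 3 mice carrying the TEKI knock-in, in which glutamate stands there and carries a negative charge. The labels give no age.

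Liver sinusoids are lined by endothelial cells that have open pores and no continuous basement membrane. These cells clear waste from the blood through scavenger receptors, among them the stabilins, and carry the lectin Clec4g and the hyaluronan receptor Lyve1. Larger hepatic vessels have a closed endothelium, whose cells share with sinusoidal cells the junction proteins Pecam1, Cdh5 and Esam and the growth factor receptors Kdr and Tek. Vwf, the clotting protein stored in endothelial granules, is known mainly from the larger vessels, and its level in sinusoids is low in healthy liver. In whole-liver RNA these cells are mixed with all others, and fewer cells of a type and less RNA per cell cannot be told apart.

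Levels are log2 intensities relative to the 75th percentile of the same array, and 1 probe stands for a gene, the one with the highest mean over the 13 arrays. Levels of different genes are not set against each other, since probes differ in how brightly they bind. The probe used for each of the 10 genes was well above background and unsaturated on all 13 arrays. Across the series, 60.5% to 73.1% of spots were well above background on 12 arrays and 86.8% on TEKI replicate 1, where the scanner software also called 87 spots non-uniform (1 to 6 on the others). WT replicates 1, 2 and 4 were on slide 1, WT replicate 3 on slide 2, and WT replicate 5 with the 3 TEKI arrays on slide 3. TAKI replicates 1 and 2 were on slide 4 and the other TAKI arrays on slide 5, so for TAKI the slide cannot be told apart from the genotype.

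With arrays scaled to their 75th percentile, most endothelial markers stood slightly above wild type in both knock-ins, by less than the test could tell from the spread between mice, whereas with median scaling 6 of 10 did in TAKI and 2 of 10 in TEKI. In TAKI livers 8 of 10 members were above the WT mean, against 50.3% of all genes, and the member furthest above was Tek, the angiopoietin receptor, at 0.42 ± 0.16 (SE) on the probe used. In TEKI livers 8 of 10 were above, against 62.5% of all genes, led by Clec4g, a lectin of sinusoidal cells, at 0.45 ± 0.14. Stab1 and Lyve1 in TAKI, and Lyve1 and Cdh5 in TEKI, were the members at or below the WT mean. Both knock-ins were compared with the same 5 WT arrays, so the comparisons are not independent of each other.

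None of the 10 members had TAKI and WT values that did not overlap, which held for 7.49% of all genes. None passed limma's moderated test at an adjusted p of 0.05 in TAKI, where 2.82% of all genes did, and the lowest adjusted p was 0.214. At an unadjusted p of 0.05, 3 members passed in TAKI (Stab2, Tek and Vwf), and 14.7% of all genes did. With 1 array left out at a time that count lay between 1 and 4, and it was 1 without WT replicate 1, 2 or 4 or TAKI replicate 4. In TEKI none passed either, where 0.0049% of all genes did, with a lowest adjusted p of 0.390. At an unadjusted p of 0.05, 3 members passed there (Clec4g, Stab2 and Esam), against 11.6% of all genes. The sinusoidal members had a median difference of 0.12 in TAKI and 0.22 in TEKI, and the general members 0.21 and 0.30. Single arrays moved these medians, other than the general one in TEKI, by over 1.5 times. In TAKI the sinusoidal median was 0.04, 0.05 and 0.07 without WT replicate 2, TAKI replicate 2 and TAKI replicate 4, and 0.25 without TAKI replicate 1, and the general median was 0.13 without TAKI replicate 4. In TEKI the sinusoidal median was 0.33 without TEKI replicate 1 and 0.11 without TEKI replicate 2. The median over all genes tested was 0.00 in TAKI and 0.07 in TEKI.

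**Figure D1:**
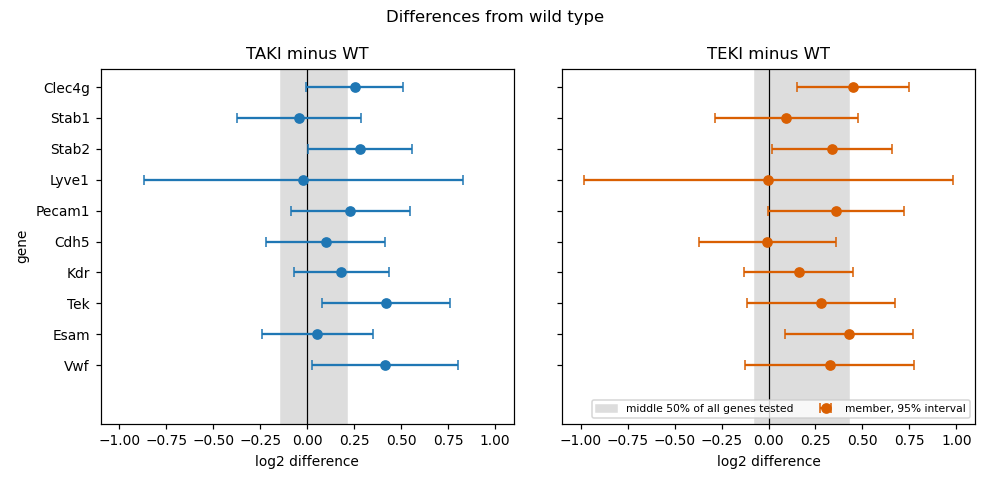
Difference of the knock-in mean from the WT mean for each of the 10 members, as log2 difference on the horizontal axis, for TAKI (left) and TEKI (right). Points are estimates over 5 WT, 5 TAKI and 3 TEKI arrays, bars are 95% intervals of the limma fit, and the grey band holds the middle 50% of all 20390 genes; the Lyve1 interval is the widest in both panels.

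Clec4g encodes a C-type lectin of sinusoidal endothelium, also called LSECtin. Its levels in WT were 3.28, 3.02, 3.43, 3.19 and 3.70 in replicates 1 to 5. In TAKI they were 3.57, 3.62, 3.48, 3.69 and 3.53, and in TEKI 3.72, 3.88 and 3.72. The TAKI values lay closely together within the upper range of WT, whereas every TEKI value lay above every WT and every TAKI value. The gap to WT was narrow, because WT replicate 5, the array that shared a slide with TEKI, was the highest of its group.

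The mean Clec4g level was 3.32 ± 0.26 (SD, n = 5) in WT, 3.58 ± 0.08 (n = 5) in TAKI and 3.77 ± 0.09 (n = 3) in TEKI. TAKI stood 0.25 ± 0.12 (SE) above WT, with an adjusted p of 0.357. TEKI stood 0.45 ± 0.14 above WT, a ratio of 1.36, with an unadjusted p of 0.0068 and an adjusted p of 0.390. Clec4g was the only member whose TEKI and WT values did not overlap, which held for 3.92% of all genes. With median scaling the difference was 0.02 ± 0.27 (adjusted p = 0.959). On slide 3 alone, against WT replicate 5, it was 0.07. Without WT replicate 5 it was 0.54, with an adjusted p of 0.077, and over all alternatives the adjusted p ran from 0.077 to 1.00.

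Stab1 and Stab2 encode the stabilins, scavenger receptors that take up modified lipoproteins and matrix fragments, and Stab2 is also the main clearance receptor for hyaluronan. The WT levels of Stab2 were 2.01, 1.62, 2.0, 1.77 and 2.21. TAKI replicates 1 to 5 had 2.20, 2.07, 2.51, 2.16 and 2.08, and TEKI replicates 2.15, 2.36 and 2.27. All knock-in values were above 4 of the 5 WT arrays and overlapped only with WT replicate 5. The differences from WT were 0.28 ± 0.13 in TAKI (adjusted p = 0.328) and 0.34 ± 0.15 in TEKI (adjusted p = 0.419). Within slide 3 the TEKI difference was 0.05.

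Stab1 read differently from Stab2. Its levels were 1.91, 1.61, 1.99, 1.79 and 1.59 in WT, 1.63, 2.14, 1.45, 1.88 and 1.57 in TAKI, and 1.68, 2.18 and 1.76 in TEKI. The groups overlapped over nearly their whole range, with TAKI replicate 2 and TEKI replicate 2 as the highest arrays. TAKI stood at -0.05 ± 0.15 (adjusted p = 0.936) and TEKI at 0.10 ± 0.18 (adjusted p = 0.885). The 95% intervals ran from -0.38 to 0.29 in TAKI and from -0.29 to 0.48 in TEKI. They cover the spread between mice on the probe used under this scaling, and not other probes or scalings. With median scaling the TEKI difference was -0.33. The other Stab1 probe stood at 0.19 ± 0.24 in TAKI and 0.62 ± 0.27 in TEKI (adjusted p = 0.804 and 0.447 in the limma fit over all probes).

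Lyve1, a hyaluronan receptor shared by sinusoidal and lymphatic endothelium and by some macrophages, varied most among the members. WT levels were 1.13, 0.28, 1.18, 1.19 and 0.41, TAKI levels -0.26, 1.40, 0.60, 1.29 and 1.05, and TEKI levels 0.31, 1.91 and 0.30. Each genotype held both low and high livers, with the lowest liver in TAKI (replicate 1) and the highest in TEKI (replicate 2), and the groups overlapped. The group means were 0.84 ± 0.45 (SD, n = 5) in WT, 0.82 ± 0.67 (n = 5) in TAKI and 0.84 ± 0.93 (n = 3) in TEKI. The residual SD of Lyve1 within genotypes, 0.66, was larger than that of 80.1% of all genes tested, whereas the other 9 members had SDs from 0.17 to 0.29. The difference from WT was -0.02 ± 0.39 in TAKI (adjusted p = 0.990) and 0.00 in TEKI with an SE of 0.45 (adjusted p = 1.00). The interval in TAKI, from -0.87 to 0.83, leaves room for shifts larger than any seen in the other members.

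**Figure D2:**
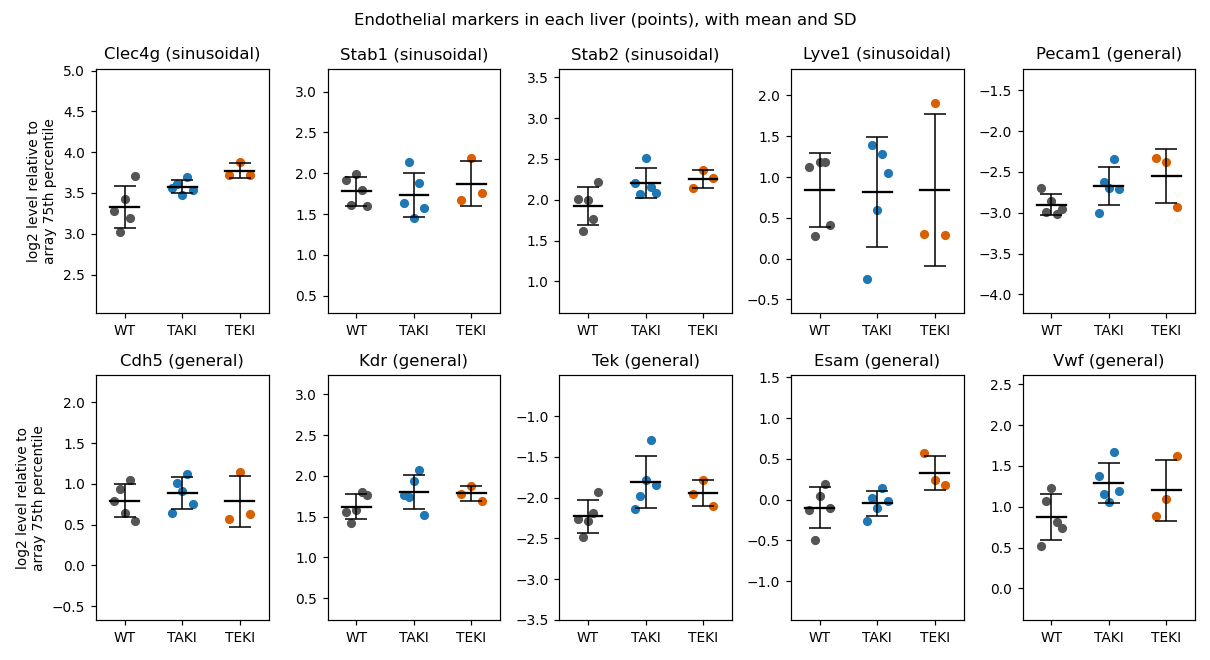
Level of each of the 10 members (vertical axis, log2 above or below the array's 75th percentile) in WT (grey), TAKI (blue) and TEKI (orange), with 1 point per liver and bars for the mean and SD. All panels span the same number of log2 units, so the wide scatter of Lyve1 from -0.26 to 1.91 can be set beside the narrow groups of Clec4g.

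Among the junction and adhesion genes, Pecam1 encodes an adhesion receptor at the borders between endothelial cells, which platelets and leukocytes carry too. Its WT levels were -2.70, -2.99, -2.85, -3.02 and -2.96, its TAKI levels -3.0, -2.62, -2.69, -2.34 and -2.71, and its TEKI levels -2.33, -2.38 and -2.93. TAKI replicates 1 and 5 and TEKI replicate 3 lay within the WT range, so the groups overlapped, and the other knock-in livers lay above it. TAKI stood 0.23 ± 0.14 above WT (adjusted p = 0.533) and TEKI 0.36 ± 0.17 (adjusted p = 0.434). Without TAKI replicate 4 the TAKI difference was 0.15, and without TEKI replicate 3 the TEKI difference was 0.55. The Pecam1 probe is shown because it was printed at 10 places on each array, which gives the measurement of this gene its own technical repeats. It is 60 bases long and written as the array design gives it:

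Pecam1 A_51_P400868: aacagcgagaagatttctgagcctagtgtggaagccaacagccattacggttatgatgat

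Cdh5 encodes VE-cadherin, the cadherin of endothelial adherens junctions. Its levels were 0.79, 0.94, 0.64, 1.04 and 0.54 in WT, 0.64, 1.02, 0.91, 1.12 and 0.76 in TAKI, and 0.57, 1.14 and 0.63 in TEKI. The groups overlapped, and TEKI replicate 2 was the highest liver, as it was for Stab1 and Lyve1. The difference from WT was 0.10 ± 0.15 in TAKI (adjusted p = 0.830) and -0.01 ± 0.17 in TEKI (adjusted p = 0.993). The other Cdh5 probe stood at 0.48 ± 0.23 in TAKI and 0.21 ± 0.26 in TEKI (adjusted p = 0.381 and 0.828 in the limma fit over all probes). Its TAKI difference was thus larger than that of the probe used, and its TEKI difference had the other direction.

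Esam, an immunoglobulin-type adhesion molecule of endothelial tight junctions and platelets, was the member that differed most between the knock-ins. WT levels were -0.13, -0.49, 0.04, 0.19 and -0.10, and TAKI levels -0.26, 0.03, -0.10, 0.15 and -0.02. TEKI levels were 0.57, 0.24 and 0.18. The TAKI livers lay within the WT range, and the TEKI livers lay above all TAKI livers and overlapped with WT only through WT replicate 4. TAKI stood 0.05 ± 0.14 above WT (adjusted p = 0.910) and TEKI 0.43 ± 0.16 (unadjusted p = 0.018, adjusted p = 0.390). Within slide 3 the TEKI difference was 0.43 as well. The highest TEKI value came from TEKI replicate 1, and without that array the difference was 0.31. With median scaling it was 0.00, with an SE of 0.24. The mean of 8 platelet genes, relative to the WT mean, lay between -0.37 and 0.54 on the WT arrays and between 0.06 and 0.90 on the TEKI arrays. These ranges overlapped, the platelet mean was highest on TEKI replicate 2 and Esam on TEKI replicate 1, and the part of platelets in the Esam value was not tested.

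Kdr encodes VEGF receptor 2, through which VEGF-A maintains the sinusoidal lining. Its levels were 1.56, 1.42, 1.58, 1.80 and 1.76 in WT, 1.76, 1.75, 1.94, 2.07 and 1.52 in TAKI, and 1.78, 1.88 and 1.69 in TEKI. The groups overlapped, and TAKI held both the highest liver, replicate 4, and one below the WT mean, replicate 5. TAKI stood 0.18 ± 0.12 above WT (adjusted p = 0.545) and TEKI 0.16 ± 0.13 (adjusted p = 0.676). Without TAKI replicate 4 the TAKI difference was 0.12. Within slide 3 the TEKI difference was 0.02.

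Tek encodes TIE2, the receptor of the angiopoietins. WT levels were -2.27, -2.48, -2.29, -2.18 and -1.93, TAKI levels -2.14, -1.99, -1.79, -1.29 and -1.84, and TEKI levels -1.95, -1.78 and -2.11. TAKI replicate 4 stood well above every other liver, and both knock-ins overlapped with WT through WT replicate 5, the highest of its group. The TAKI mean was 0.42 ± 0.16 above WT, a ratio of 1.34, with an unadjusted p of 0.020 and an adjusted p of 0.214. Its adjusted p over all alternatives ran from 0.037, with array weights, to 0.775, with the mean of its probes, where the difference was 0.17. The other Tek probe stood at -0.08 ± 0.30 in TAKI and 0.44 ± 0.35 in TEKI (adjusted p = 0.952 and 0.681 in the fit over all probes), so the TAKI difference was not seen on both probes. TEKI stood 0.28 ± 0.18 above WT (adjusted p = 0.558) and at -0.02 within slide 3. Of the 8 ligands of these receptors and related factors on the VEGF and angiopoietin list, 4 were above WT in TAKI and 4 in TEKI. The shares of all genes were 50.3% and 62.5%, and none of the 8 passed the test. On that list Angpt1, the activating ligand of TIE2, was above background on 5 of the 13 arrays, 2 of WT, 2 of TAKI and 1 of TEKI, and its TEKI minus WT difference of 1.57 ± 0.76 (adjusted p = 0.447) was 0.29 without TEKI replicate 1. Apln, the ligand of the apelin receptor, differed by 0.32 ± 0.19 in TAKI and 0.51 ± 0.22 in TEKI (adjusted p = 0.508 and 0.418), and by 0.17 in TEKI without TEKI replicate 1.

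Vwf encodes von Willebrand factor, which tethers platelets to injured vessel walls. WT levels were 0.52, 1.07, 1.23, 0.82 and 0.74, TAKI levels 1.37, 1.15, 1.06, 1.67 and 1.19, and TEKI levels 0.89, 1.09 and 1.62. All 5 TAKI livers were above 3 of the WT livers, and the groups overlapped through WT replicates 2 and 3. TAKI stood 0.42 ± 0.18 above WT (unadjusted p = 0.038, adjusted p = 0.300), a ratio of 1.33, and TEKI 0.32 ± 0.21 (adjusted p = 0.553). Without TEKI replicate 3, the highest of its group, the TEKI difference was 0.12. Within slide 3 the TEKI difference was 0.46.

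Between the knock-ins themselves, which share no array, none of the 10 members passed (limma), where 3.45% of all genes did. At an unadjusted p of 0.05, 1 member passed, against 12.1% of all genes. That member was Esam, with TEKI 0.37 ± 0.16 above TAKI (unadjusted p = 0.034, adjusted p = 0.352), and the count was 0 without TAKI replicate 1, TAKI replicate 3 or TEKI replicate 1. TEKI and TAKI values did not overlap for Esam and Clec4g, as for 8.23% of all genes, and Clec4g was 0.20 ± 0.14 higher in TEKI (adjusted p = 0.632). Of the 10 members, 6 were higher in TEKI, against 60.6% of all genes, and with median scaling that held for 1. The median difference was 0.10 for the sinusoidal and -0.06 for the general members, beside 0.06 for all genes, and with 1 array left out at a time these ran from -0.01 to 0.23 and from -0.10 to 0.02.

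The probes of Pecam1 and Kdr, each on 10 spots spread from the top to the bottom of the array, showed how far place on the array touched these values. For Kdr the TAKI minus WT difference lay between 0.12 and 0.29 over the 10 spots, with a mean of 0.16 in rows 1 to 266 and 0.20 in rows 267 to 532. For Pecam1 it lay between 0.08 and 0.32, with means of 0.21 and 0.28 in the same parts of the array. All 10 spots of each gene thus gave the same direction in TAKI, and so they did in TEKI, where Kdr lay between 0.12 and 0.22 and Pecam1 between 0.24 and 0.49. These spots repeat the reading of the same livers and do not add mice. They also share the scaling of their array, so their agreement does not bear on the direction under another scaling. With median scaling the TEKI minus WT difference was -0.27 for Kdr and -0.069 for Pecam1, whereas both genes kept their direction in TAKI. The median coefficient of variation between the spots of an array was 3.5% for Kdr and 5.5% for Pecam1.

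**Figure D3:**
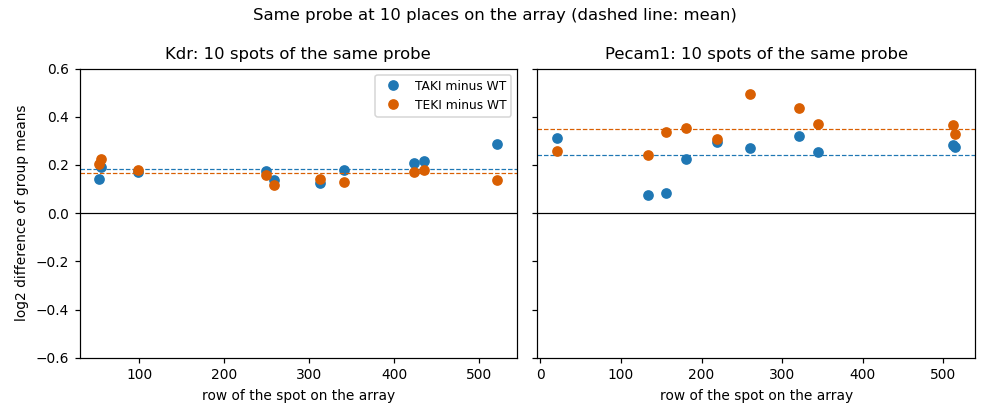
Difference of group means from WT (vertical axis, log2) at each of the 10 spots of the Kdr probe (left) and the Pecam1 probe (right), against the row of the spot on the array, for TAKI (blue) and TEKI (orange). Dashed lines are means over spots. Every spot lies above 0 under the scaling used for the levels, which all spots of an array share. With median scaling the TEKI differences of both genes lie below 0.

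For 6 members another probe passed the filter, and its agreement with the probe used varied from gene to gene. Over the 13 livers the pair for Lyve1 correlated with r = 0.92 and rho = 0.86 (permutation test, p = 2e-05 and 4e-04; adjusted over the 6 pairs, 0.00012 and 0.0024), where 2e-05 is the smallest p that the permutations for r can give. Without the 2 livers furthest from the median, TAKI replicate 1 and TEKI replicate 2, r was 0.83. On the other Lyve1 probe the same livers were low and high, with TAKI replicate 1 lowest at -3.14 and TEKI replicate 2 highest at -0.97. The wide spread of Lyve1 was thus read alike by separate sequences on the same RNA.

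The Vwf pair correlated with r = 0.78 and rho = 0.76 (permutation test, p = 0.00146 and 0.0036; adjusted p = 0.00438 and 0.0108), and with r = 0.66 without the 2 livers furthest from the median. The other Vwf probe stood 0.29 ± 0.15 above WT in TAKI and 0.47 ± 0.18 in TEKI, so both probes gave differences above 0 in both knock-ins (adjusted p from 0.328 to 0.583 in the fit over all probes). For Clec4g and Cdh5 the r was 0.45 and 0.43, with rho of 0.51 and 0.45, and neither passed (permutation p = 0.0889 and 0.137 for r, 0.0798 and 0.126 for rho; adjusted p = 0.178 and 0.205 for r, 0.160 and 0.186 for rho). The r was 0.20 and 0.18 without the 2 livers furthest from the median.

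The pairs for Stab1 and Tek had r of 0.06 and 0.02, and rho of 0.43 and 0.12 (permutation p = 0.776 and 0.998 for r, 0.155 and 0.707 for rho; adjusted p = 0.932 and 0.998 for r, 0.186 and 0.707 for rho). Without the 2 livers furthest from the median r was -0.00 and 0.23. On the other Stab1 probe TEKI replicate 1 stood far above the rest, at -2.31 against at most -3.31 elsewhere, and without that array r was 0.41. The sequences below are the other probes of Stab1 and Vwf, shown because the first did not follow the probe used for its gene across all livers and the second did:

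Stab1 A_52_P380399: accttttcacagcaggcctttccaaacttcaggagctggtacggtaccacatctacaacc

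Vwf A_51_P103406: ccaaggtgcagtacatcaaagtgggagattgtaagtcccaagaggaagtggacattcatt

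Across these 6 pairs, the other probe gave the same direction as the probe used for 3 genes in TAKI and for 4 in TEKI. TEKI replicate 1 was the highest of the 13 arrays on 3 of these 6 other probes, and over them it stood at a median of 0.48 above the median of the other 12 arrays. Among the 10 probes used it was highest for Pecam1 and Esam only, and the same measure was 0.03. The 4 probes that did not pass the filter, for Clec4g, Pecam1, Kdr and Vwf, were above background on 2, 0, 1 and 1 of the 13 arrays and are not read as levels.

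**Figure D4:**
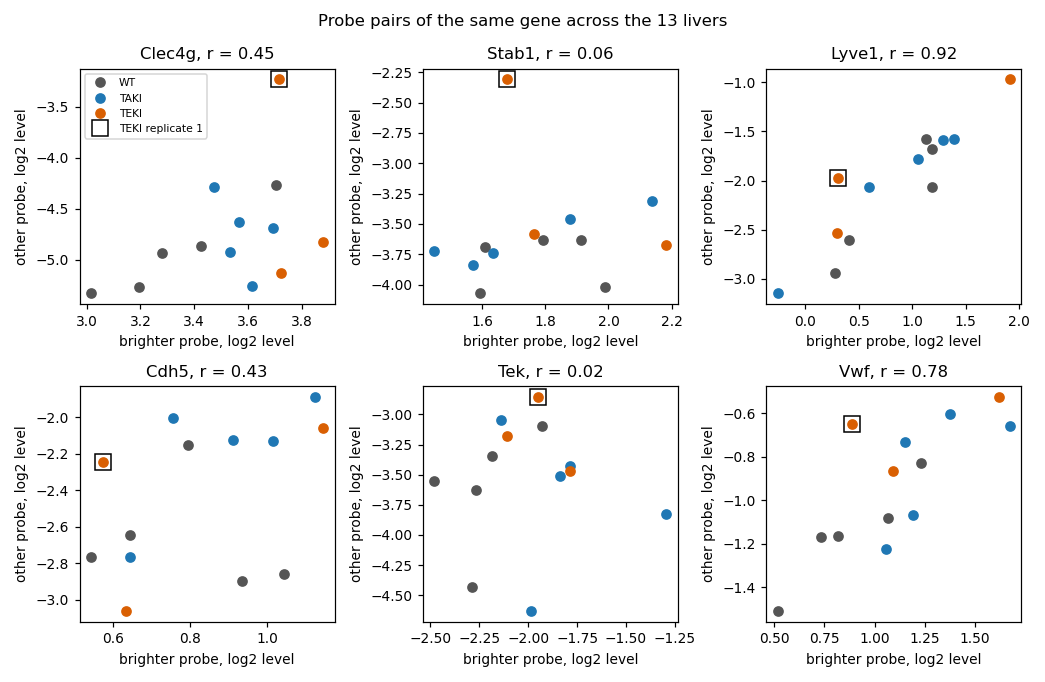
Level on the other probe of a gene (vertical axis) against the level on the probe used (horizontal axis), both log2 relative to the 75th percentile, for the 6 members with a pair of probes past the filter; each point is 1 of 13 livers, in grey (WT), blue (TAKI) or orange (TEKI). The livers line up for Lyve1 (r = 0.92) and Vwf (r = 0.78), and the boxed TEKI replicate 1 stands apart on the other probes of Clec4g and Stab1.

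The members did not vary across livers as a single block. Over the 13 livers, and given here as descriptions over arrays that share genotypes, slides and overall brightness, the highest correlations among the 45 pairs of members were Kdr with Tek at r = 0.79, Clec4g with Stab2 at 0.78 and Stab1 with Lyve1 at 0.75. After the genotype means were removed these were 0.72, 0.62 and 0.77. Stab1 and Stab2, the stabilins, had an r of -0.05. Lyve1 and the mean of the other 3 sinusoidal genes had an r of 0.39. Most pairs had an r above 0: 5 of the 6 sinusoidal, 14 of the 15 general and 21 of the 24 mixed pairs. The median r was 0.20 over the 6 pairs of sinusoidal genes, 0.39 over the 15 pairs of general genes and 0.35 over the 24 mixed pairs. Sinusoidal genes were therefore not more alike with each other, by this measure, than with the general genes.

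RefSeq promoters were at hand for 5 of the 10 members, Clec4g, Stab1, Stab2, Kdr and Tek, on build GRCm38.p6. The 250 bases before each start were searched on both strands for 8 motifs. Those of ETS factors, which endothelial genes use widely, were spelled AGGAAG, with the shorter core GGAAG, the variant CGGAAG and the longer AGGAAGT. Further motifs were AGATAA for GATA factors, then TGACTCA for AP-1, then AACAAT for SOX factors, and lastly CTAATTA. The ETS forms overlap each other, since each holds the shorter core. AGGAAG occurred in 29.2% of the 27025 promoters of that length. Clec4g had 3 matches, Stab2 and Stab1 had 1 each, and Kdr and Tek had none. The GATA motif occurred in 10.3% of promoters and in none of the 5. The promoters of Clec4g and Stab2, the sinusoidal genes that varied most alike, are shown 5′ to 3′ on the strand of the gene, with AGGAAG on either strand in capitals; in Clec4g a pair of matches overlap and their capitals run together. Clec4g lies on the minus strand at chr8:3720652-3720901 and Stab2 on the minus strand at chr10:87007943-87008192.

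Clec4g: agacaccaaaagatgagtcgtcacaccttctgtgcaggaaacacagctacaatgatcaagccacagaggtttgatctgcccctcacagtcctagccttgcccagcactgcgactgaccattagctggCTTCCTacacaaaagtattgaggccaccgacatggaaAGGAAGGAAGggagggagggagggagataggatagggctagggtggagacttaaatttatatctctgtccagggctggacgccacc

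Stab2: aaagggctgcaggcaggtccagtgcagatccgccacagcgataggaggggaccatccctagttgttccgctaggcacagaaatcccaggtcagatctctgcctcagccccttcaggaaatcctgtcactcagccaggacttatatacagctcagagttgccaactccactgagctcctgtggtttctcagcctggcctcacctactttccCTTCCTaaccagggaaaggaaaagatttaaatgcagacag

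The genes most like the members across livers included further endothelial genes. Of 15473 genes above background on all 13 arrays, those with the highest Pearson r to the mean of the 4 sinusoidal members were Tmem132e (0.96), Icam2 (0.94), Pxdn (0.93), Mmrn2 (0.93) and Fkbp7 (0.92). Icam2, an adhesion molecule, and Mmrn2, a matrix protein of endothelial cells, are on the list of other endothelial genes used here. Icam2 ranged from 0.33 in WT replicate 2 to 1.34 in TEKI replicate 2, the livers that were also lowest and highest for the sinusoidal mean. With Lyve1 alone and with the mean of the other 3 sinusoidal members, r was 0.76 and 0.85 for Tmem132e, 0.74 and 0.83 for Icam2, and 0.91 and 0.61 for Fkbp7. For the mean of the 6 general members the closest were Fcgr2b (0.92), Rapgef5 (0.89), Tspan18 (0.89), Lrrc8c (0.89) and Cnr2 (0.89). Fcgr2b, an inhibitory receptor for IgG that sinusoidal cells carry in quantity, ranged from 1.68 in WT replicate 2 to 2.61 in TAKI replicate 4. These likenesses rest on the same 13 arrays and scaling, and no test is attached to them.

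Per liver, the mean of the 4 sinusoidal members, relative to the WT mean, was 0.12, -0.34, 0.18, 0.02 and 0.01 in WT, -0.18, 0.34, 0.04, 0.29 and 0.09 in TAKI, and -0.00, 0.62 and 0.05 in TEKI. The groups overlapped, with TEKI replicate 2 alone above the rest. The mean of the 6 general members was -0.05, -0.10, 0.05, 0.10 and -0.00 in WT, 0.05, 0.21, 0.21, 0.55 and 0.14 in TAKI, and 0.25, 0.36 and 0.17 in TEKI. Here TAKI replicate 4 was highest, and TAKI replicate 1 overlapped with WT. With the scaling used for the levels, 4 of the 5 TAKI livers and all 3 TEKI livers lay above every WT liver. With median scaling the median difference of the general members was -0.12 in TEKI and 0.054 in TAKI. Whether the livers stay apart under that scaling was not tested, nor how often other sets of 6 genes set them apart.

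Other endothelial genes were read from 4 further lists, of which 67 genes were tested. With the 75th percentile as the scale, 55 of them (82.1%) were above WT in TAKI, where 50.3% of all genes were. In TEKI 58 (86.6%) were, beside 62.5% of all genes. With median scaling 38 were above WT in TAKI and 11 in TEKI. Above the median of all genes under median scaling were 55 in TAKI and 55 in TEKI. Such counts can hardly change with the scaling, which moves all genes of a comparison by nearly the same amount. None passed the test in either comparison. At an unadjusted p of 0.05 (limma), 10 passed in TAKI (14.9%, beside 14.7% of all genes) and 13 in TEKI (19.4%, beside 11.6%). The median difference was 0.17 in TAKI and 0.26 in TEKI, and 0.02 and -0.17 with median scaling. The counts by list that follow are with the 75th percentile, where 50.3% of all genes were above WT in TAKI and 62.5% in TEKI.

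Of 16 other sinusoidal genes, 15 were above WT in TAKI and 14 in TEKI, with medians of 0.25 and 0.38. Dnase1l3, a secreted DNase of sinusoidal cells and macrophages, stood 0.45 ± 0.13 above WT in TAKI (adjusted p = 0.101) and 0.56 ± 0.15 in TEKI (adjusted p = 0.390), and its groups did not overlap with WT in either. Gata4, the transcription factor that sets the sinusoidal programme, stood 0.63 ± 0.19 above WT in TAKI (adjusted p = 0.113) and at -0.04 ± 0.22 in TEKI (adjusted p = 0.971). Of 15 genes of central and portal endothelium, 11 were above WT in TAKI and 12 in TEKI, with medians of 0.14 and 0.28. Among them Wnt9b, a Wnt ligand made by central vein endothelium, stood at 0.42 ± 0.17 in TAKI and 0.48 ± 0.20 in TEKI (adjusted p = 0.275 and 0.410). Efnb2, an arterial ephrin, stood at 0.48 ± 0.19 and 0.28 ± 0.22 (adjusted p = 0.248 and 0.650).

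Capillary and continuous endothelium genes, 12 in number, had 9 above WT in each knock-in, with medians of 0.16 and 0.29. Podxl, a sialomucin of the vessel surface, stood 1.00 ± 0.27 above WT in TAKI (adjusted p = 0.079) and 0.78 ± 0.31 in TEKI (adjusted p = 0.402). Aplnr, the apelin receptor, stood at 0.33 ± 0.27 in TAKI and 1.1 ± 0.31 in TEKI (adjusted p = 0.651 and 0.390), and at 0.58 in TEKI without TEKI replicate 1, its highest array. Of 24 further genes of endothelium in general, 20 were above WT in TAKI and 23 in TEKI, with medians of 0.11 and 0.20. Ldb2, a cofactor of LIM domain proteins, stood at 0.42 ± 0.17 in TAKI and 0.73 ± 0.19 in TEKI (adjusted p = 0.241 and 0.390), and at 0.46 in TEKI without TEKI replicate 1. Myct1 stood at 0.39 ± 0.15 and 0.35 ± 0.17 (adjusted p = 0.213 and 0.446).

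On the list of 6 endothelial adhesion molecules, of which 5 were tested, 1 gene passed. Madcam1, the receptor for gut-homing lymphocytes, fell by 2.85 ± 0.37 in TAKI (adjusted p = 0.002) and was 3.64 higher in TEKI than in TAKI (adjusted p = 0.001). Its single probe was above background on 3 of the 5 TAKI arrays and lay in row 499 of 532. Selp, which binds leukocytes and platelets, stood at 0.12 ± 0.11 in TAKI and 0.27 ± 0.13 in TEKI (adjusted p = 0.695 and 0.432).

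Markers of other cells that share these genes or lie beside them were read on the same arrays, each list as its mean per array relative to the WT mean. Lymphocyte markers, 10 genes, lay between -0.09 and 0.05 in WT, 0.30 and 0.62 in TAKI and 0.14 and 1.1 in TEKI. Among them Cd2, an adhesion molecule of T cells, rose in TAKI by 1.05 ± 0.14 (limma, adjusted p = 0.003). In TEKI Cd2 stood at 0.85 ± 0.17 (adjusted p = 0.228). The part of lymphocytes in the endothelial values was not tested.

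Kupffer cell and macrophage markers, which bear on Lyve1 and Stab1, lay between -0.37 and 0.74 in WT, -0.21 and 0.76 in TAKI and -0.79 and 0.64 in TEKI. Their medians were 0.22 in TAKI and 0.06 in TEKI. In TAKI 10 of 10 were above WT, beside 50.3% of all genes, and in TEKI 6 of 10, beside 62.5%. Their named genes, Clec4f and Vsig4, stood at 0.19 ± 0.17 and 0.49 ± 0.33 in TAKI and at 0.36 ± 0.20 and 0.21 ± 0.39 in TEKI (adjusted p from 0.495 to 0.884), and without TEKI replicate 1 the TEKI values were 0.17 and -0.04. Lymphatic endothelium, which also carries Lyve1, had 4 of 5 markers tested, 2 of them above background on all arrays. Its mean lay between -0.15 and 0.26 in WT, 0.23 and 0.50 in TAKI and -0.11 and 0.73 in TEKI. That mean takes in the 2 dimmer markers. The 2 above background on all arrays, Prox1 and Reln, stood at 0.08 and -0.02 in TAKI and at -0.15 and -0.08 in TEKI. The genes of smallest p on that list, Mmrn1 and Pdpn, were the dim ones. Mmrn1 was above background on 1 of 5 WT, 3 of 5 TAKI and 2 of 3 TEKI arrays, and stood at 0.76 ± 0.32 in TAKI and 1.09 ± 0.36 in TEKI (adjusted p = 0.277 and 0.390), or 0.70 in TEKI without TEKI replicate 1. Pdpn was not well above background on any WT array, and on 2 TAKI and 1 TEKI arrays it was, so no difference is given for it.

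Platelet markers, which bear on Vwf, Esam and Pecam1, had 5 of 8 above WT in TAKI and 7 of 8 in TEKI. The shares of all genes were 50.3% and 62.5%. Medians of the platelet markers were 0.13 and 0.52. Treml1, a receptor of platelet granules, stood at 0.08 ± 0.30 in TAKI and 0.70 ± 0.35 in TEKI (adjusted p = 0.943 and 0.460). Hepatocyte markers, 9 tested, lay between -0.15 and 0.25 in WT, -0.18 and 0.19 in TAKI and -0.10 and 0.40 in TEKI. Stellate cell markers lay between -0.30 and 0.30, -0.47 and 0.24, and -0.32 and 0.32 in the same order. Cholangiocyte markers lay between -0.51 and 0.53, -0.49 and 0.90, and -0.27 and 0.45, and red cell markers between -0.38 and 0.46, -0.19 and 0.49, and -0.44 and 0.64. No gene of these lists passed the test in any comparison. The part of these cells in the endothelial values was not tested.

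Median scaling of all arrays turned the direction of most TEKI differences from WT. With quantile normalization all 10 members were above 0, with a median difference of 0.16 in place of 0.30. With normexp background correction 9 members were above 0. With each array set on its median in place of its 75th percentile, the all-gene median for TEKI against WT moved from 0.07 to -0.36, and 2 of 10 members, Clec4g at 0.02 and Esam at 0.00, were not below 0. Median scaling moves every gene of a comparison by nearly the same amount. The count of members above the median of all genes, 8 of 10 under either scaling, could therefore hardly change. When TEKI replicate 1 was left out as well, a choice made after the data were seen, the median of all genes was -0.06 and all 10 members were above 0. In TAKI the median of all genes moved from 0.00 to -0.15 with median scaling, and 6 of 10 members were above 0. The count above the median of all genes, 8 of 10, could likewise hardly change there. With median scaling no member passed at an unadjusted p of 0.05 (limma) in any of the 3 comparisons.

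Within slide 3, which held the 3 TEKI arrays and WT replicate 5, the differences fell into separate groups. Those of Esam (0.43), Lyve1 (0.43), Pecam1 (0.41), Vwf (0.46), Stab1 (0.28) and Cdh5 (0.24) were as large as or larger than over all slides. For Lyve1 this came from TEKI replicate 2 (1.91). TEKI replicates 1 and 3 (0.31 and 0.30) lay below WT replicate 5 (0.41). Those of Clec4g (0.07), Stab2 (0.05), Kdr (0.02) and Tek (-0.02) were near 0. These values set 3 livers against 1 and rest on WT replicate 5. For TAKI, no slide held both genotypes.

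**Figure D5:**
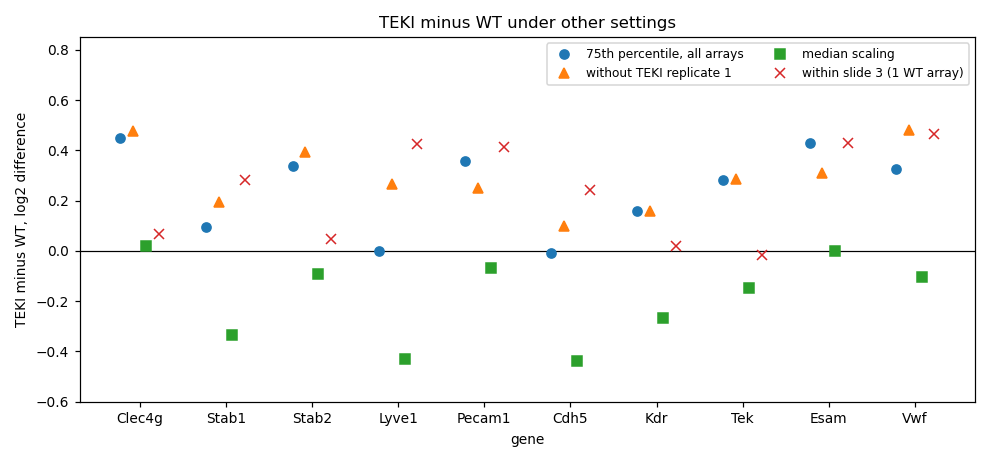
TEKI minus WT for each member (vertical axis, log2 difference) with all arrays scaled to the 75th percentile (circles), without TEKI replicate 1 (triangles), with median scaling (squares) and within slide 3 against its single WT array (crosses). Median scaling puts 8 of the 10 members below 0, beside a median of all genes of -0.36, and the crosses of Clec4g, Stab2, Kdr and Tek lie near 0.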

How the data were processed

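RNA from 13 livers, labelled with Cy3, was read on 1-colour Agilent arrays of the mouse genome. The authors made the scanner files with Agilent Feature Extraction 9.5, per the submitters' processing notes, and the deposited values are processed intensities on a linear scale, with background subtracted and trends across the array removed, per the file headers. The series table deposited beside them was identical to these intensities (largest difference 0), and is thus neither log-transformed nor centred or scaled between arrays.

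Spots marked as outliers by the scanner software were left out (8 values among member probes), spots of a probe were averaged, log2 was taken and the 75th percentile of each array subtracted. Probes were named by RefSeq accession (22951), symbol (6659) or synonym (3109), and 8455 kept the file's name. Per gene, the brightest of its probes was taken, and the gene was tested if that probe was well above background on at least 3 arrays. The probes so kept entered a single limma model (version 3.58.1, R 4.3.3) with the 3 genotypes and all 13 arrays, which left 10 residual degrees of freedom. Moderated t statistics followed, with Benjamini-Hochberg adjustment over 20390 genes and a threshold of 0.05. In the fit called over all probes, each probe past this filter and each member probe was fitted on its own. Its adjusted p is over these 29933 probes. The fit was tested on simulated data. The number of arrays limits the precision. Correlations of probe pairs were tested by 100000 permutations for r and 10000 for rho. Files were read in Python 3.11.15 through pandas 2.3.3 and numpy 2.4.6, and plots drawn in matplotlib 3.10.9. Probe sequences came from the scanner files and promoters from RefSeq.

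The members, the other lists and the tests were chosen with earlier results of these data known. Named genes were all members, every gene past the threshold on the other lists and the 2 genes of smallest p on each, and the 5 genes most like each set of members; those of the hepatocyte, stellate, cholangiocyte and red cell lists are given through their lists, and 2 genes of the lymphocyte and platelet lists are not reported here. Prox1 and Reln were named besides, as the lymphatic markers above background on all arrays. Alternatives were other scalings, background corrections, filters and probe rules, a correction by array row, array weights, fewer groups, slide and replicate number as blocks, and leaving out each array.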

Additional observations from a re-analysis of the deposited data

How the results depend on the processing

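Among 800 recomputed member values (10 genes, 3 comparisons), 723 kept direction and side of the threshold, 75 turned direction, all between values that do not pass, and 2 passed: with array weights Clec4g stood at 0.33 (adjusted p = 0.046) and Tek at 0.52 (adjusted p = 0.037) in TAKI. No member passed with the settings of the report. Some of the 800 values could not turn direction. The deposited table was identical to the main input, and leaving out an array of the third genotype does not move a difference. The cause of the shifts below was not tested. All differences are log2. With median scaling, TAKI minus WT had 999 genes past the threshold in place of 575, a general median of 0.054, and Cdh5 and Esam at -0.053 and -0.10. TEKI minus WT had 2 genes in place of 1, medians of -0.21 (sinusoidal) and -0.12 (general), and Stab1 at -0.33, Stab2 -0.092, Pecam1 -0.069, Kdr -0.27, Tek -0.15 and Vwf -0.10. TEKI minus TAKI had medians of -0.18 and -0.33, and Clec4g at -0.081, Stab1 -0.14, Stab2 -0.22, Lyve1 -0.26 and Pecam1 -0.15, with 520 of 1023 genes past the threshold higher, against 505 of 704 under the 75th percentile. Median scaling without TEKI replicate 1, added after the data were seen, gave 1502, 6 and 1196 genes, a general median of 0.054 in TAKI, Cdh5 and Esam at -0.053 and -0.10 in TAKI, Lyve1 at 0.17 and Cdh5 at 0.0029 in TEKI minus WT, and Cdh5, Kdr and Vwf at 0.056, 0.036 and 0.12 in TEKI minus TAKI. Quantile normalization gave 874, 5 and 1124 genes (492 of the 1124 higher), a general median of 0.11 in TEKI minus WT, Lyve1 at 0.0044 in TAKI and 0.020 in TEKI, Cdh5 at 0.0057 in TEKI, and Pecam1 at -0.10 in TEKI minus TAKI. Normexp correction gave 416 genes (131 higher) in TAKI, 0 in TEKI minus WT (2658 at an unadjusted p of 0.05, limma) and 2656 in TEKI minus TAKI, with Stab1 at 0.049 in TAKI and Cdh5 at 0.0085 in TEKI. Without a filter on dim probes 2 genes passed in TEKI minus WT. With only probes above background on all arrays 254, 0 (1510 unadjusted, limma) and 296 passed. The mean of a gene's probes gave Stab1 0.074 and Lyve1 0.060 in TAKI, Lyve1 0.17 and Cdh5 0.10 in TEKI, and Tek 0.19, Vwf 0.044 and a general median of 0.086 in TEKI minus TAKI. Row correction gave Cdh5 0.015 in TEKI. Array weights gave 2254 genes in TAKI and 2 in TEKI minus WT, Lyve1 at 0.0050 in TAKI, and Lyve1 -0.061, Pecam1 -0.018 and Vwf 0.046 in TEKI minus TAKI. WT and TAKI alone gave 1333 genes. Slide as a random block (correlation 0.04) gave Lyve1 0.019 and Cdh5 0.0092 in TEKI. Slide as a fixed block and slide 3 alone gave 0 genes (979 and 445 unadjusted, limma), Lyve1 0.43, Cdh5 0.24 and Tek -0.017. The replicate block gave 343 genes in TAKI (599 in TEKI minus TAKI and 1 in TEKI minus WT), Lyve1 0.11 and Cdh5 0.0090 in TEKI and Kdr 0.027 in TEKI minus TAKI, and changed no member's call. Same-numbered arrays correlated from -0.23 to 0.32 in their deviations (median 0.10), and other pairs from -0.44 to 0.43 (median -0.02). These overlapping ranges do not show a pairing by number, and they cannot exclude it. With each array left out in turn, the genes past the threshold ran from 295 (without TAKI replicate 5) to 1312 (without TEKI replicate 1) in TAKI minus WT, with 348, 353 and 375 without WT replicate 2, TAKI replicate 3 and TAKI replicate 4, from 1 to 93 (without TEKI replicate 2) in TEKI minus WT, with 17, 3 and 4 without WT replicate 5, TEKI replicate 1 and TEKI replicate 3, and from 408 (without TEKI replicate 3) to 1099 (without TEKI replicate 1) in TEKI minus TAKI. Members that turned ran, in TAKI minus WT, from -0.15 to 0.026 (Stab1), -0.17 to 0.25 (Lyve1) and -0.044 to 0.13 (Esam). In TEKI minus WT they ran from -0.059 to 0.19 (Stab1), -0.54 to 0.27 (Lyve1) and -0.19 to 0.097 (Cdh5). In TEKI minus TAKI they ran from -0.013 to 0.24 (Stab1), -0.52 to 0.29 (Lyve1), -0.094 to 0.044 (Kdr) and -0.30 to 0.065 (Vwf).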
